A study of Mus musculus with 2 samples.

Results

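The miR-101 loci of the mouse are the annotated microRNA genes whose symbol is Mir101 followed by a letter, and 3 of the 2202 genes in the count tables met this rule: Mir101a, Mir101b and Mir101c. They were measured by microRNA-seq in heart tissue of female B6CASTF1/J mice, the hybrid of C57BL/6J and CAST/EiJ, at an age of 18 to 20 months. The 2 libraries form 1 group with no treatment and no control, are numbered as biological replicates, and come from separate tissue records that point to 1 donor record. Nothing in the labels says that the tissues came from separate animals, so SDs speak only for the spread from 1 library to the other, which may be technical, and the p-values set these libraries against counting error alone. The values are counts of reads on the sense strand of each hairpin gene, or CPM, the same per 1000000 counts on the sense strand of all genes in that library.

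MicroRNAs are cut from a hairpin into a short mature strand that guides Argonaute proteins to messenger RNAs, mostly by pairing of the seed, bases 2 to 8 of the mature strand, with sites in their 3′ untranslated regions (UTRs). MiR-101 is known as a repressor of EZH2, the methyltransferase of the Polycomb repressive complex, in human cancer cells. In rat hearts it has been described as a brake on fibrosis through Fos, a transcription factor subunit, and Tgfbr1, a TGF-beta receptor, in cardiac fibroblasts.

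The mature sequences show how close the loci are and are given here as RefSeq lists them for GRCm38.p6, 5′ to 3′, with the seed in capitals.
miR-101a-3p: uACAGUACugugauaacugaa
miR-101b-3p: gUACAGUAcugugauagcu
miR-101c: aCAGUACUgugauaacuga
miR-101a-5p: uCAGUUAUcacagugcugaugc
miR-101b-5p: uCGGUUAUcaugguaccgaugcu
Mature entries were found for all 3 loci, among 1738 mature sequences in the table. The 3 main strands hold the same core, but the listed 5′ end lies 1 base further upstream in miR-101b-3p and 1 base further downstream in miR-101c than in miR-101a-3p, so that each has a seed of its own. With positions counted from 1 at the 5′ end of miR-101a-3p, the best ungapped match in the Mir101b hairpin had 20 of 21 bases and the single difference A16G. The match in the Mir101c hairpin had 19 of 21 bases, with the differences U1C and A21U at the ends. All 19 bases of miR-101c lie within the Mir101a hairpin. The 5p strands differed more, with 17 of 22 bases of miR-101a-5p matched in the Mir101b hairpin.

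The hairpins are given next because the counts are per hairpin and the shared stretches bear on which reads can be told apart. They are from GENCODE M21 transcripts, 5′ to 3′, with the annotated mature strands in capitals.
Mir101b hairpin: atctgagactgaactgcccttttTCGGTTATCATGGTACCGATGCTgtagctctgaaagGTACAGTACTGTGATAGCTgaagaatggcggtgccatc
Mir101a hairpin: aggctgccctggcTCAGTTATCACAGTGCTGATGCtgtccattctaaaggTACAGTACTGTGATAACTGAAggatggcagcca
Mir101c hairpin: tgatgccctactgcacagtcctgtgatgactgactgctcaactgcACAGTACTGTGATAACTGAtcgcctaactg
The longest stretch common to Mir101a and Mir101b was 20 nt, that of Mir101a and Mir101c 19 nt, and that of Mir101b and Mir101c 14 nt. No microRNA locus of the annotation other than these shared 20 nt with Mir101a or Mir101b. A read that lies wholly within a shared stretch maps to more than 1 place, and such reads entered no gene count. Copies outside annotated transcripts were not searched. How many miR-101 reads were set aside in this way was not tested, and no count below is a measure of the mature microRNA as a whole.

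Mir101b (mm10 chr19:29135279-29135375, plus strand, 97 nt) lies in intron 8 of both annotated protein-coding transcripts of Rcl1 that span it, each of 9 exons. Rcl1, on the same strand, is known from yeast as a factor of ribosomal RNA processing. Mir101a (chr4:101346945-101347027, minus strand, 83 nt) lies in exon 2 of 2 of the long noncoding RNA gene E130102H24Rik, also on the same strand. Mir101c (chr9:3038669-3038743, minus strand, 75 nt) overlaps no annotated gene. The surroundings of Mir101b and Mir101a resemble each other: Mir101b lies 87.3 kb from Ak3 and 116 kb from Jak2, and Mir101a lies 72.3 kb from Ak4 and 81.7 kb from Jak1. Ak3 and Ak4 encode mitochondrial nucleotide kinases, and Jak1 and Jak2 encode cytokine receptor kinases. No member lies in a microRNA cluster, since none had another microRNA gene within 10 kb and the nearest lay 1126, 1689 and 1232 kb from Mir101b, Mir101a and Mir101c.

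**Figure D1:**
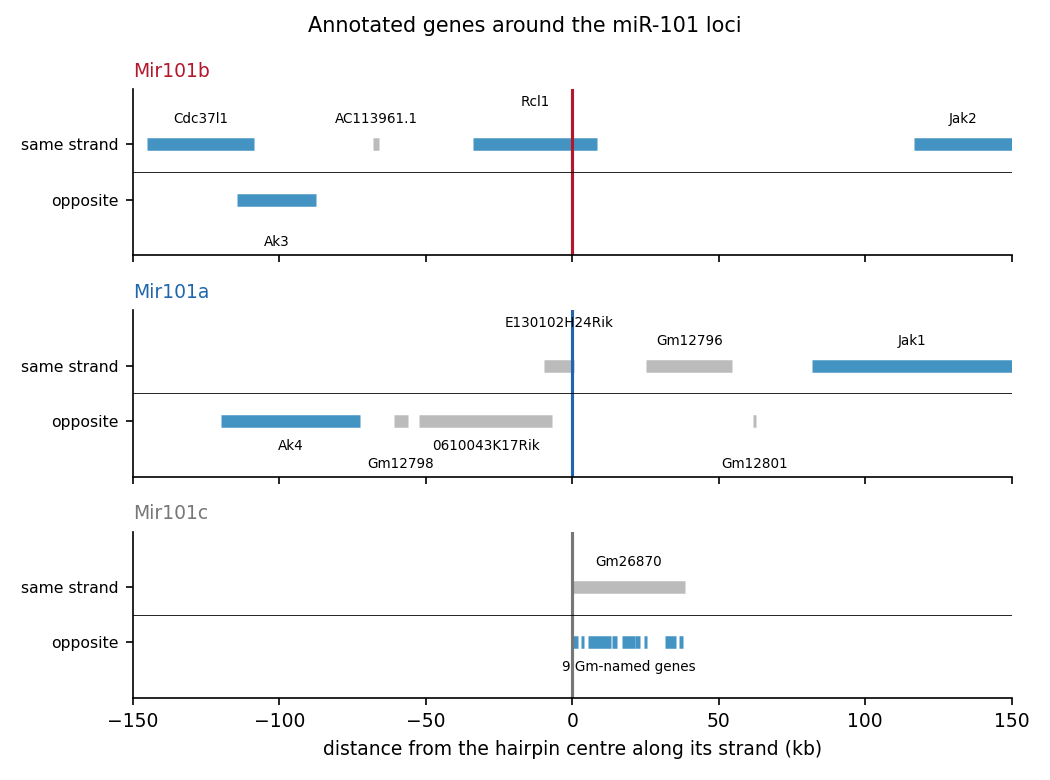
Annotated protein-coding genes (blue) and long noncoding RNA genes (grey) around the 3 loci, by distance in kb from the hairpin centre along its strand (vertical lines), with genes on the same strand above and on the opposite strand below the midline. Mir101b lies inside Rcl1 with Jak2 downstream and Ak3 upstream, and Mir101a inside E130102H24Rik with Jak1 downstream and Ak4 upstream.

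Replicate 1 held 3383676 sense gene counts, or 36.1% of the reads in its table, and replicate 2 held 3676084, or 34.8%. Reads mapping to more than 1 place took 43.9% and 43.2%. The defining heart muscle genes Mir208a, Mir208b and Mir499 were counted in both libraries. They had 1588, 59.1 and 3977 CPM in replicate 1 and 1247, 17.1 and 3567 CPM in replicate 2. Of 6 neuronal loci, 5 had 0 counts in both libraries. The neuronal loci are copies of Mir124a and of Mir9 that share mature strands, and reads mapping to more than 1 place entered no gene count. Their zeros therefore cannot speak to the tissue. Counting error alone is covered by the intervals and floors, because PCR copies were not collapsed by molecular identifiers. The reads were counted on mm10, the genome of C57BL/6J, and an effect of CAST/EiJ variants in the hairpins was not tested.

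Mir101b was the highest of the 3 loci, Mir101a came second, and Mir101c was not detected. Mir101b had 512 counts in replicate 1, or 151 CPM (Wilson 95% interval 139 to 165), and 388 counts in replicate 2, or 106 CPM (95.6 to 117). Its mean was 128 ± 32.4 CPM (SD, n = 2), which placed it at rank 131 of all genes. Mir101a had 199 counts in replicate 1, or 58.8 CPM (51.2 to 67.6), and 204 counts in replicate 2, or 55.5 CPM (48.4 to 63.6). The libraries agreed closely on it, with a mean of 57.2 ± 2.35 CPM (SD, n = 2) and rank 160. Mir101c had 0 counts in both libraries, and the floor set by 3 counts stood at 0.887 CPM in replicate 1 and 0.816 CPM in replicate 2. A read of exactly the 19 bases of miR-101c fits the Mir101a hairpin as well, so that it would enter neither count. The intervals of Mir101b and Mir101a did not overlap in either library. No member had a read on its antisense strand, and the counts on either strand were the same as the sense counts.

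**Figure D2:**
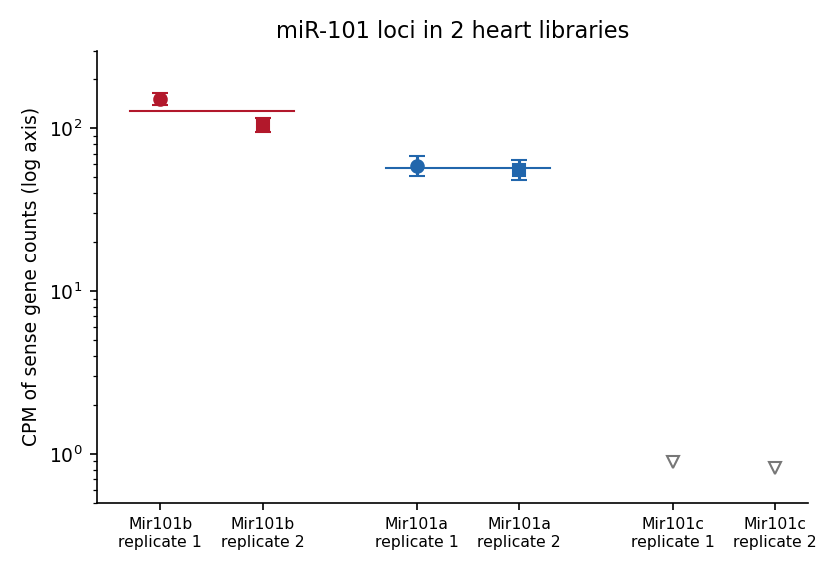
CPM of sense gene counts (log axis) of Mir101b, Mir101a and Mir101c in replicate 1 (circles) and replicate 2 (squares), with Wilson 95% intervals and the mean of the 2 libraries as a horizontal line. Open triangles mark the floor of 3 counts for Mir101c, which had none. Mir101b lies above Mir101a in both libraries.

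Mir101b exceeded Mir101a 2.57-fold in replicate 1 (exact 95% interval 2.18 to 3.05) and 1.90-fold in replicate 2 (1.60 to 2.27), a mean ratio of 2.24 ± 0.474 (SD, n = 2). The ratio needs no scaling between libraries, and it was 1.35 times as large in replicate 1 as in replicate 2 (Fisher's exact test, two-sided, p = 0.0136, adjusted over 5 ratios by Benjamini-Hochberg p = 0.0227). This test covers counting error only. The share of reads of each hairpin that was set aside as mapping to several places is not known.

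All members together took 711 counts in replicate 1, or 210 CPM, and 592 counts in replicate 2, or 161 CPM, a mean of 0.0186% ± 0.00346 of the sense gene counts (SD, n = 2). Mir101b made up most of this sum in each library. At 10 counts or more in each library, 316 genes were tested between libraries, and 2 of the 3 loci were among them. The genes next above Mir101b in mean CPM were Mir467e (134 ± 66.7 CPM), Mir379 (135 ± 38.0 CPM) and Mir204 (137 ± 16.2 CPM), and those next below were Mir224 (127 ± 28.2 CPM), Mir222 (122 ± 41.5 CPM) and Mir374b (122 ± 21.4 CPM). All 6 lay within 1 SD of Mir101b, so its place among them is not resolved. Next above Mir101a were Mir26a-2 (61.6 ± 33.7 CPM), Mir542 (62.8 ± 8.14 CPM) and Mir3107 (63.8 ± 12.5 CPM), and next below were Mir598 (57.0 ± 7.88 CPM), Mir188 (54.9 ± 1.41 CPM) and Mir337 (54.2 ± 17.3 CPM).

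**Figure D3:**
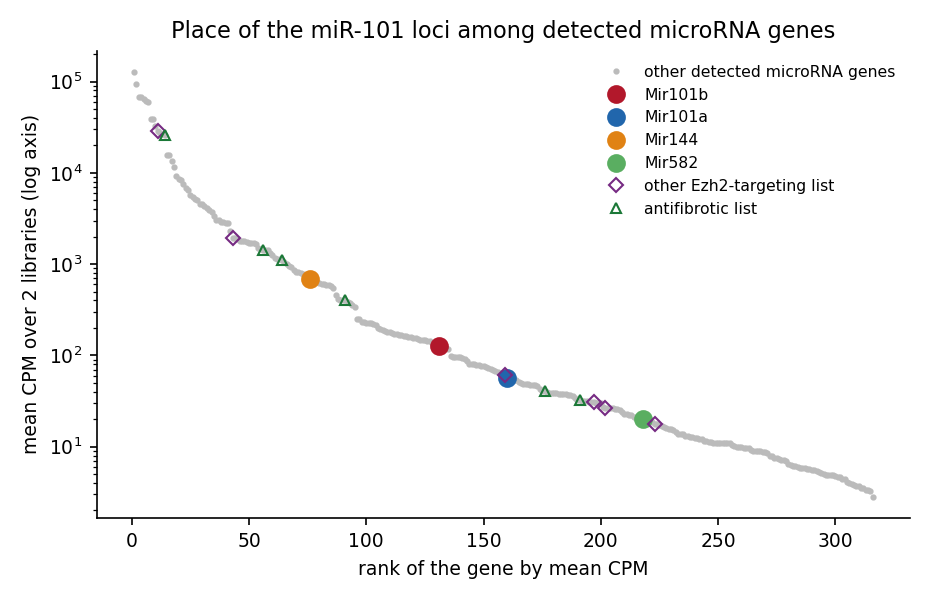
Mean CPM over 2 libraries (log axis) against rank for the 316 genes with 10 counts or more in each library. Mir101b (red) and Mir101a (blue) sit in the middle of the curve, below Mir144 (orange) and above Mir582 (green), which share a 6-base seed with miR-101a-3p and miR-101b-3p. Diamonds are the other Ezh2-targeting loci and triangles the antifibrotic loci.

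Between the libraries, Mir101b differed and Mir101a did not pass the test. Mir101b was 1.56-fold higher in replicate 1 than in replicate 2 on TMM-scaled counts (log2 ratio 0.64, two-sided exact binomial test, adjusted p = 8.68e-11). Mir101a had a log2 ratio of 0.21 (fold 1.16, exact binomial test, adjusted p = 0.232). The test sets 1 library against 1, compares these libraries, not conditions, and covers counting error only, and the libraries differed far beyond it over all genes tested (chi-square per degree of freedom 1080). It called 191 of 316 genes (60.4%), of which 86 (27.2%) were higher in replicate 1, so that 1 call among the 2 tested members lies near the background. By the size of the log2 ratio, Mir101b stood at place 120 and Mir101a at place 227 of the 316 genes, whose median was -0.05 and SD 0.955.

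Other cell types' microRNAs also differed in level between the libraries. The summed CPM of the erythroid list, which includes Mir144, was 4182 in replicate 1 and 1938 in replicate 2. All 3 of its loci were tested and called higher in replicate 1, beside 27.2% of all genes tested. The endothelial list, nearly all Mir126a, held 129044 and 57715 CPM in replicates 1 and 2. With reads on either strand Mir126a was not called (log2 ratio 0.25 in place of 1.28, exact binomial test, adjusted p = 0.887). That column set aside 9.89% and 8.08% of all reads in replicates 1 and 2 as ambiguous, against 0% in the sense column. How many of these were Mir126a reads was not tested, so this alternative cannot decide whether the difference in sense counts holds. The white blood cell list ran the other way, with 8644 and 16363 CPM, as did the epithelial list, with 215 and 829 CPM. The striated muscle list, nearly all Mir499 and Mir208a, held 5734 and 4923 CPM. In none of these 5 lists was a locus at 0 in both libraries, and their part in the difference of Mir101b was not tested. In bulk tissue, fewer cells of a type and less RNA per cell cannot be told apart.

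**Figure D4:**
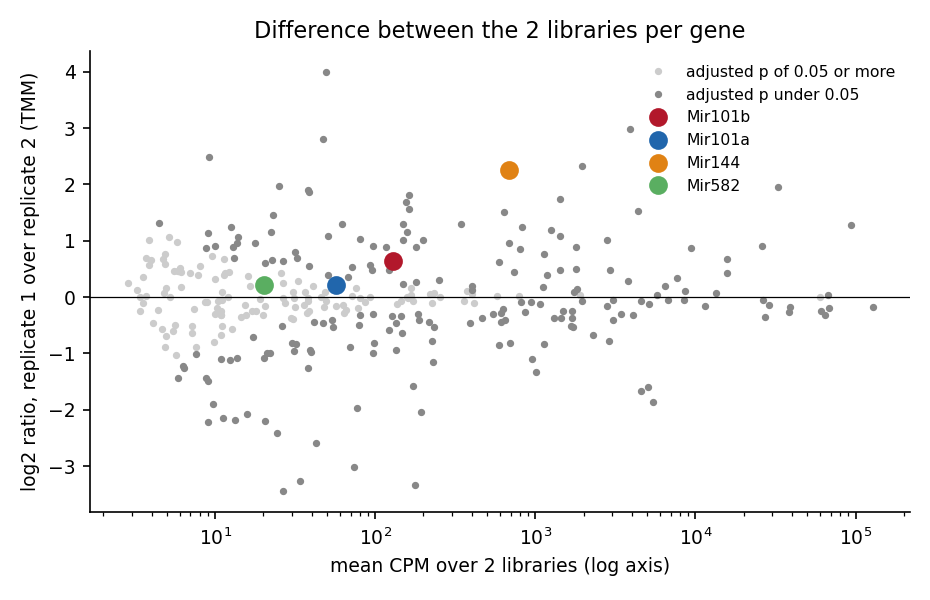
The log2 ratio of replicate 1 over replicate 2 on TMM-scaled counts against mean CPM (log axis) for 316 genes, with genes at an adjusted p under 0.05 in darker grey. Mir101b (red, 0.64) and Mir101a (blue, 0.21) lie within the cloud, and Mir144 (orange, 2.26) lies near its upper edge.

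Over 2 libraries, likeness of pattern can only be the nearness of the log2 ratio, and it was taken among genes with a mean CPM within 2-fold. Of 60 such genes, those nearest to Mir101b were Mir148b (0.58), Mir1a-2 (0.54) and Mir196b (0.49). Of 64 such genes, those nearest to Mir101a were Mir29b-1 (0.20), Mir188 (0.18) and Mir345 (0.17). These are log2 ratios of replicate 1 over replicate 2, and 22 of the 60 genes differed by more than Mir101b while 43 of the 64 differed by more than Mir101a.

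Outside the family, miR-101a-3p and miR-101b-3p each shared bases 2 to 7 with 1 mature sequence, and both are shown with bases 2 to 8 in capitals.
miR-144-3p: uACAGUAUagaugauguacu
miR-582-5p: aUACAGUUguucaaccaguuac
MiR-144-3p has the ACAGUA of miR-101a-3p, and miR-582-5p the UACAGU of miR-101b-3p. Anywhere in a mature strand, ACAGUA occurred in 0.518% of the 1738 sequences and UACAGU in 0.690%. No mature sequence outside its own locus shared bases 2 to 8 with a miR-101 strand. Mir144, known from red blood cells, had 3786 counts in replicate 1 and 937 in replicate 2 and was above both members in each library. Mir101b stood at 0.135 times Mir144 in replicate 1 (exact 95% interval 0.123 to 0.148) and at 0.414 times in replicate 2 (0.367 to 0.467). Mir101a stood at 0.0526 times Mir144 in replicate 1 (0.0454 to 0.0606) and at 0.218 times in replicate 2 (0.186 to 0.254). Both ratios differed between the libraries (Fisher's exact test, adjusted p = 1.43e-45 for Mir101b and 1.24e-38 for Mir101a). Mir582 had 71 counts in replicate 1 and 72 in replicate 2 and lay below both members. Mir101b was 7.21 times Mir582 in replicate 1 (5.62 to 9.38) and 5.39 times in replicate 2 (4.18 to 7.03), and the 2 ratios were not told apart (Fisher's exact test, adjusted p = 0.154). Mir101a was 2.80 times Mir582 in replicate 1 (2.13 to 3.73) and 2.83 times in replicate 2 (2.16 to 3.76).

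The seeds were also looked up in the 3′ UTRs of 6 genes that have been described as miR-101 targets, to show what the shifted seeds have in common. The motifs are the reverse complements of bases 2 to 8, searched on the transcript strand: GTACTGT for miR-101a-3p, TACTGTA for miR-101b-3p and AGTACTG for miR-101c, which overlap one another. Over the longest annotated 3′ UTR of 21020 protein-coding genes (median length 961 bases), these occurred in 9.38%, 12.2% and 8.72%. Ezh2 has a 3′ UTR of 402 bases with 2 matches for miR-101a-3p, 1 for miR-101b-3p and 2 for miR-101c. Its first site matches miR-101a-3p and miR-101c but not miR-101b-3p. The second site matches all 3. Both stretches of Ezh2 and 1 of Fos are shown, from GENCODE M21 with the miR-101a-3p match in capitals.
Ezh2, match starting at base 59: caggaaccttgaGTACTGTggg
Ezh2, match starting at base 114: tgaatttgcaaaGTACTGTaac
Fos, match starting at base 535: agctatatccatGTACTGTagt
Fos, Ptgs2 (the cyclooxygenase COX-2) and Dusp1 (a phosphatase of MAP kinases) each had 1 match for miR-101a-3p and 1 for miR-101b-3p at the same place. Tgfbr1, with a 3′ UTR of 4154 bases, had 2 for miR-101a-3p and 1 for miR-101b-3p. Mcl1, an inhibitor of cell death, had 1 for miR-101b-3p and none for miR-101a-3p. The Mcl1 site does hold TACTGT, the reverse complement of bases 2 to 7 of miR-101a-3p, a shorter match that the search left out. These genes were chosen as described targets and were not measured here, and a match is no sign that a site was in use.

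**Figure D5:**
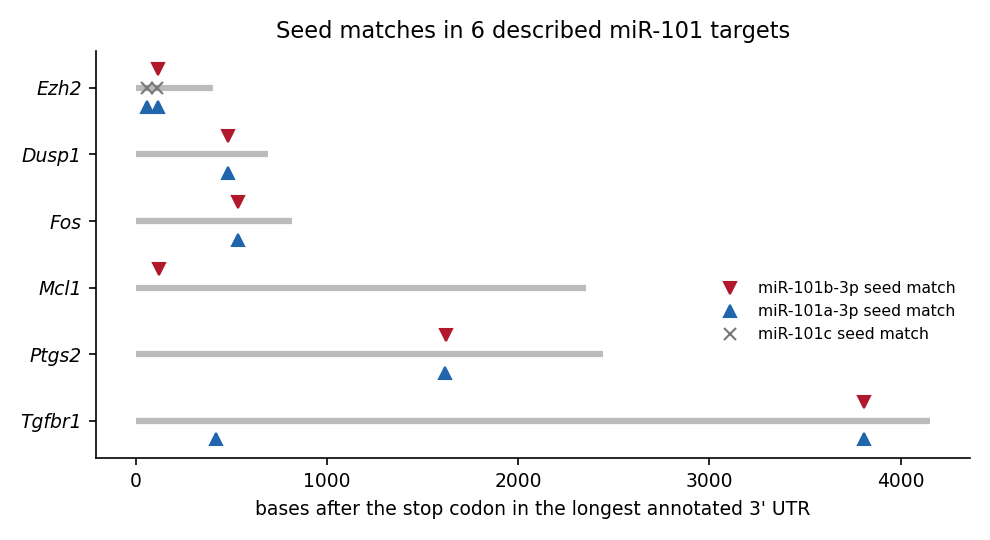
Positions of seed matches, in bases after the stop codon, in the longest annotated 3′ UTR (grey bars) of 6 described miR-101 targets, for miR-101b-3p (red), miR-101a-3p (blue) and miR-101c (grey crosses). By bases 2 to 8, Ezh2 has 2 sites for miR-101a-3p and 1 for miR-101b-3p, and Mcl1 has 1 for miR-101b-3p alone.

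Other microRNAs described as repressors of Ezh2 spanned a wide range of levels beside the miR-101 loci. Mir26b had the highest mean of this list, at 28864 ± 3735 CPM, followed by Mir214 at 1956 ± 1783 CPM, while Mir26a-2 (61.6 ± 33.7 CPM), Mir138-1 (30.8 ± 7.61 CPM), Mir26a-1 (26.7 ± 31.9 CPM) and Mir138-2 (17.9 ± 3.16 CPM) lay below Mir101b. Mir26a-1 and Mir26a-2, and likewise Mir138-1 and Mir138-2, are copies that yield the same main mature strand, so their counts are uncertain. Of the 6 loci, all were tested between the libraries: Mir214 and Mir26a-2 were called higher in replicate 1, Mir26b and Mir26a-1 were called higher in replicate 2, and the 2 Mir138 loci were not called, which makes 4 of 6 called beside 60.4% of all genes tested. With library totals Mir138-1 was called as well, higher in replicate 2 (log2 ratio -0.51, exact binomial test, adjusted p = 0.0209). Their median log2 ratio was -0.19, against -0.05 over all genes tested.

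Among microRNAs described as antifibrotic in the heart, the role also given to miR-101, Mir29a stood highest, at 26169 ± 9718 CPM. Mir29c (1429 ± 651 CPM), Mir30c-2 (1123 ± 30.1 CPM) and Mir30c-1 (400 ± 15.8 CPM) lay above both miR-101 loci, and Mir29b-1 (40.6 ± 1.57 CPM) and Mir29b-2 (32.4 ± 8.91 CPM) below them. Mir133a-1 and Mir133a-2 had 3.05 ± 2.23 and 5.21 ± 3.91 CPM and did not reach 10 counts in each library. Of the 6 loci tested, 5 were called higher in replicate 1, the direction of Mir101b, and Mir29b-1 was not called (log2 ratio 0.20), beside 27.2% of all genes tested that were higher in replicate 1. Their median log2 ratio was 0.45, against -0.05 over all genes tested. With library totals in place of TMM, 3 of the 6 were called, all higher in replicate 1, beside 22.2% of all genes tested. Those 3 were all miR-29 loci. Mir30c-1 and Mir30c-2 were then not called (log2 ratios 0.08 and 0.05, exact binomial test, adjusted p = 0.196 and 0.133). The paired copies of Mir29b, Mir30c and Mir133a share mature strands, so that their counts are uncertain. For Mir101a and Mir101b, the best match of miR-101a-3p in the Mir101b hairpin differs at 1 base. There the limit touches reads that lie wholly within a shared stretch. Whether it also reaches reads that span the differing base was not tested.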

How the data were processed

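For each of 2 libraries the authors deposited a table of raw counts by microRNA gene in 3 columns (either strand, sense, antisense), per the values of the files, which have no headers. Reads were placed on mm10 and counted on GENCODE M21, per the readme deposited beside the tables. The sources used here do not give the aligner or the counter. The 4 rows that name no gene (unmapped, multimapping, featureless and ambiguous reads) stayed out of totals and tests, and in the sense column they took 14.9%, 43.9%, 5.07% and 0% of replicate 1 and 16.2%, 43.2%, 5.75% and 0% of replicate 2.

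All 2202 identifiers were matched to GENCODE M21. CPM was computed on sense gene totals, and 3 counts set the floor. Genes with 10 counts or more in each library were compared with a two-sided exact binomial test, replicate 1 over replicate 2, taking the expected share from effective library sizes (TMM, edgeR 4.0.16) and Benjamini-Hochberg adjustment at 0.05 over all genes tested. Ratios have exact and shares Wilson 95% intervals. DESeq2 1.42.0 gave alternative size factors. The exact binomial test was checked on simulated counts that held counting error and set fold changes. Unlike these data, the simulated counts held no further spread between libraries. Software was R 4.3.3, Python 3.11.15, scipy 1.17.1, pandas 2.3.3 and matplotlib 3.10.9.

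The members, lists and target genes were chosen with earlier results of these data known. The text names all miR-101 loci, the members of the Ezh2-targeting and antifibrotic lists, mature sequences that share bases 2 to 7, the 3 genes next above and below each detected locus in mean CPM, and the 3 nearest in log2 ratio within 2-fold of its mean CPM. Lists of smooth muscle, fibroblast, hepatocyte and neuronal microRNAs were also summed, and held 35639, 5231, 23.9 and 0.887 CPM in replicate 1 and 50822, 4470, 17.1 and 0.816 CPM in replicate 2.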

Additional observations from a re-analysis of the deposited data

How the results depend on the processing

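Under 5 alternatives (DESeq2 size factors, library totals, a minimum of 1 count in either library, a minimum of 100 in each, and reads on either strand), Mir101b kept its call, with log2 ratios of 0.52 to 0.70, and Mir101a did not pass, with 0.08 to 0.26. With library totals the median log2 ratio of all genes was -0.18 in place of -0.05, and 3 antifibrotic loci were called in place of 5, and 5 Ezh2-targeting loci in place of 4. Calls over all genes numbered 132 of 181 (72.9%) at 100 counts in each library and 201 of 708 (28.4%) at 1 count in either, against 191 of 316 (60.4%), so that the background share depends on the filter. With reads on either strand, which gives a smaller total, mean CPM was 173 for Mir101b and 76.6 for Mir101a, and with all reads of the table as the denominator it was 45.7 and 20.3. Leaving out each library gave 106 to 151 CPM for Mir101b, 55.5 to 58.8 CPM for Mir101a and a ratio of Mir101b to Mir101a of 1.90 to 2.57. TMM sizes changed these means by less than 1 SD. For Mir101c the floor of 3 counts limits only reads that fit no other locus. No paired analysis was possible because there is 1 group.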
